A study of Mus musculus with 2 samples.

Results

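The cells described here are the YFP- macrophages of the mouse sciatic nerve (SN), taken as every barcode of the YFP- library with at least 500 UMIs (unique molecular identifiers, each of which stands for 1 captured RNA molecule) and at least 200 genes. The rule kept 1045 cells (exact Poisson 95% interval 983–1110), which is 20.5% of the 5098 cells it kept over both libraries of the series. It used depth alone and no gene, so the levels below were not chosen by it.

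CD64+ CD45int macrophages had been isolated from SNs of mice with the alleles Flt3-Cre and LSL-YFP fl/fl, all male and 10 to 12 weeks old, and divided by YFP fluorescence before droplet single-cell RNA-seq. Cre under the control of Flt3, a receptor of hematopoietic progenitors, switches on YFP for good in such progenitors and in the cells they give rise to. The study therefore reads YFP- macrophages as embryonic-derived and YFP+ macrophages as derived from hematopoietic stem cells (HSCs), although a cell in which Cre did not act also stays without YFP. Both groups came from the same pooled nerves, of 19 mice by the labels, and carried the same alleles. The labels name no treatment for either. The groups differ by the YFP gate, the lane on which each was loaded, the number of cells loaded and the reads sequenced. By the paper, many more cells were loaded for the YFP+ library, with only somewhat more reads. Each condition is 1 library of pooled cells, cells are not replicates, and no test and no p-value could therefore be made here. Intervals in parentheses are 95% intervals and cover counting error only.

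Resident macrophages of peripheral nerve lie between the axons and their Schwann cells, around vessels and in the sheath of the nerve. Like microglia, the macrophages of the brain, they depend on signalling through the receptor CSF1R, take up debris such as myelin, make complement C1q and can present antigen on MHC class II. Stimulated macrophages switch on immediate-early genes such as Fos within minutes and chemokines soon after, and the same genes are known to respond when tissue is digested into single cells.

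The YFP- library held 3653688 UMIs, of which 2418044 (66.2%) lay in the 1045 cells. A cell had a median of 2233 UMIs (range 501–7457) and 1050 genes (range 302–2539), and 17758 genes had at least 1 UMI in a cell. Mitochondrial transcripts made up a median of 1.002% of a cell's UMIs and passed 10% in 3 cells, the highest at 11.2%. Around the threshold, the 17 barcodes with 450 to under 500 UMIs had 4.88% of their UMIs on mitochondrial genes and 62180.0 CPM (UMIs per 1 M UMIs) on 15 macrophage genes. The 19 cells with 500 to under 550 UMIs had 4.91% and 50525 CPM. Scrublet marked 3 cells (0.287%) as doublets, that is, droplets with several cells, and none was removed. The YFP- and YFP+ cells shared 7 barcodes, or 0.670% of the YFP- cells, where 5.74 would be shared if both had been drawn from the kit at random.

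Transcripts of C1q, Apoe and Selenop were present in nearly every cell, and those of other macrophage markers in fewer. C1qa, a chain of complement C1q, stood at 6161 CPM (6062–6261) and had a UMI in 1032 of the 1045 cells. Apoe, which carries lipids, stood at 27396 CPM in 1041 cells, and Selenop, a secreted selenoprotein, at 5157 CPM in 1016 cells. Csf1r reached 992 CPM in 885 cells, and Fcgr1, which encodes the CD64 used for the sort, 108 CPM in 206 cells. Lyve1, a hyaluronan receptor of some resident macrophages, was the least common of the 5 defining markers, with 314 CPM in 352 cells. At least 1 UMI of a C1q chain was present in 1041 cells (99.6%). With every cell thinned to 500 UMIs, C1qa had a UMI in 92.2% of cells (90.4–93.7), Csf1r in 43.4% (40.4–46.5) and Lyve1 in 12.8% (10.9–15.003). The Y-linked genes Ddx3y and Eif2s3y had 70.3 and 64.1 CPM, and Xist, which is active in female cells, had 2 UMIs in 1 cell.

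Transcripts of other cell types were scarce except for those of myelin. Of the 9 T cell genes 6 were at 0 and the list summed to 2.48 CPM, and the NK cell and erythroid lists had no UMI, which allows up to 1.24 CPM (3 counts). Neutrophil genes S100a8, S100a9, Retnlg and Ly6g were at 0, and 89.3% of that list's 173 CPM came from Mmp9, a protease that macrophages also make. Cd79a, Ms4a1, Pax5 and Igkc of the B cell list were at 0, while Ighm gave most of its 376 CPM. Dendritic cell genes summed to 284.5 CPM (264–307), of which Sirpa, which macrophages also express, gave 67.2% and Cd209a 58.7 CPM in 97 cells. Xcr1, Clec9a, Ccr7, Itgae and Dpp4 of that list were at 0, Fscn1 had 52 UMIs, and Flt3 itself had 18 UMIs in 17 cells. Fibroblast genes summed to 76.9 CPM, endothelial genes to 96.4 CPM and mural genes to 12.8 CPM. The 12 Schwann cell genes summed to 773 CPM (738–808), with the myelin genes Pmp22 at 347 CPM and Mbp at 131 CPM. A group of 9 cells held 1034 of that list's 1868 UMIs.

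RNA outside cells resembled RNA inside them in its macrophage genes but not in its Schwann cell genes. The 56346 barcodes with 10 to 100 UMIs, called free RNA here, held 24.9% of all UMIs, and Apoe led them with 37533 CPM. C1qa was at 6849 CPM in free RNA, close to its 6161 CPM in cells, and 500 UMIs drawn from free RNA alone would hold one of C1qa in 96.7% of draws. The 15 macrophage genes together stood at 69118 CPM against 56203 CPM in cells. Schwann cell genes were at 3482 CPM in free RNA against 773 CPM in cells. A UMI of an abundant gene in a cell can thus come from either source, and the part of free RNA in the shares of cells below was not tested. In 9 barcodes rich in Schwann cell transcripts, described with the clusters, the same 15 genes stood at 7168 CPM.

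The 20 most abundant genes outside the lists of ribosomal protein and mitochondrial genes, Fau among them, held 20.1% of the UMIs. The listed ribosomal protein genes held a further 21.4%. That list was taken by name and has 393 entries, among them copies such as Rpl28-ps1. Malat1, a nuclear noncoding RNA, led with 35560.1 CPM (35323–35799), followed by Apoe and by Cd74, the invariant chain of MHC class II, at 22091 CPM. Tmsb4x, which binds actin monomers, had 17404 CPM, and Lyz2, the lysozyme of myeloid cells, 11859 CPM. The ferritin chains Ftl1 and Fth1, which store iron, had 10200.4 and 5915 CPM, and Cst3, an inhibitor of cathepsins, had 8108 CPM. The MHC class II chains H2-Ab1, H2-Aa and H2-Eb1 had 6569, 6190.1 and 5821 CPM. The 3 C1q chains summed to 16920.3 CPM (16757–17085). Pf4, a chemokine that resident macrophages express, had 4677 CPM and Fcer1g, the signalling chain of Fc receptors, 3043 CPM. Each UMI was counted from the 3′ end of a transcript, so these levels need no correction for the length of the gene.

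**Figure D1:**
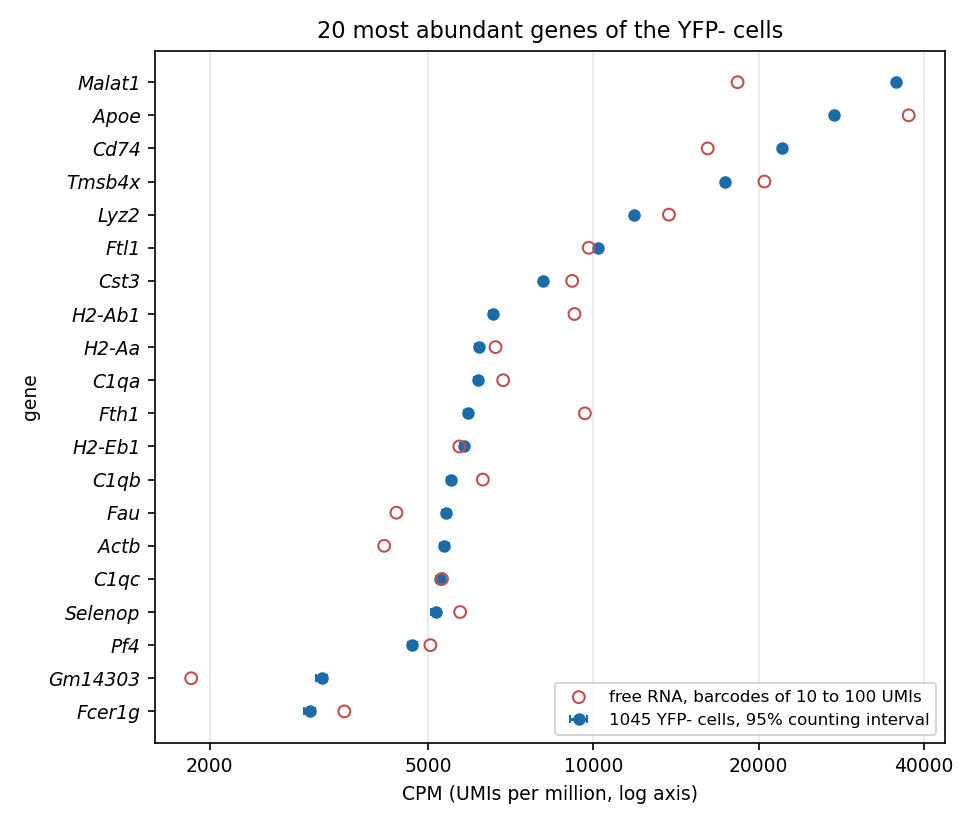
Level of the 20 most abundant genes in the 1045 YFP- cells (filled points, CPM on a log axis, bars are 95% counting intervals) and in free RNA (open points). Malat1 was at 35560.1 CPM in cells and 18308 CPM in free RNA, while Apoe was at 27396 CPM in cells and 37533 CPM in free RNA.

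The plot of the most abundant genes sets free RNA beside the cells. Malat1, which stays in the nucleus, lay lower in free RNA, and Fth1 lay higher there, at 9650 CPM. Gm14303, a gene model among the 20 that is annotated as a processed pseudogene, had 3199 CPM in cells and 1850.2 CPM in free RNA. It stood at 1154 CPM in YFP+ cells, and from which gene its reads came was not tested.

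Lower in abundance, the cells carried the receptors and transcription factors of resident macrophages. Of 12 scavenger receptors 10 passed the floor of 3 counts, led by Cd163, which takes up haemoglobin, at 1079 CPM in 813 cells, and Mrc1, the mannose receptor, at 996 CPM in 827 cells. Stab1 had 770.5 CPM and Colec12 89.7 CPM, while Marco and Cd5l were at 0. Among 16 transcription factors of macrophage identity, Maf had 1450 CPM in 908 cells, Zeb2 705 CPM and Spi1, which encodes PU.1, 340.4 CPM. Gata6 and Sall1, factors of peritoneal macrophages and microglia respectively, were at 0. Of 12 homeostatic microglia genes Mef2c was highest at 608 CPM and Cx3cr1 had 273 CPM in 358 cells, while P2ry12 had 49.6 CPM and Tmem119 3.31 CPM. Of 15 genes of disease-associated microglia, Tyrobp made up 72.7% of the summed 3803 CPM and Trem2 had 317 CPM in 425 cells. Cst7 of the same list was at 0 and Itgax had 1 UMI.

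Genes that vary between cells were found from the variance of Pearson residuals, which is 1 where a gene's counts vary only as much as depth and counting predict. Among 8560 genes seen in at least 20 cells, 134 (1.57%) had a residual variance of 2 or more, and the median over all tested genes was 1.15. Among genes of at least 100 CPM the share was 7.58%, so the call depends on abundance. Immediate-early genes were called for 15 of 18 members tested, Cd209 and Fcna scavenger genes for 9 of 15 and macrophage genes for 6 of 15, against the 1.57% of all genes. Of the shorter lists, MHC class II genes were called for 4 of 7, inflammatory cytokine genes for 4 of 6 and CC chemokines for 6 of 7. All 5 monocyte genes that could be tested were called, but 7 further members were too rare. None of 13 identity transcription factors was called, which is near the shares of 1.57% and 7.58% and says little about these factors. Csf1r, Mrc1 and Tyrobp were not called either, and 1 of 198 tested entries of the ribosomal protein list, copies included, was. The remainder of the 134 included 53 genes on none of the lists. The calls also depend on depth. With every cell thinned to 500 UMIs 27 genes were called, among which only Fos, Jun and Junb were of the immediate-early list, only Retnla of the Cd209 and Fcna list, only Apoe of the macrophage list and only Lyz2 of the monocyte list. Cd74, H2-Ab1 and H2-Eb1 of MHC class II and Cxcl2, Ccl3 and Ccl4 of the inflammatory cytokines were also called there. Of the 6 called CC chemokines, only Ccl12 and Ccl7 were called after thinning. With a theta of 10, which allows genes more spread before a call, 102 were called, and C1qa, C1qb, C1qc and Selenop were not.

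**Figure D2:**
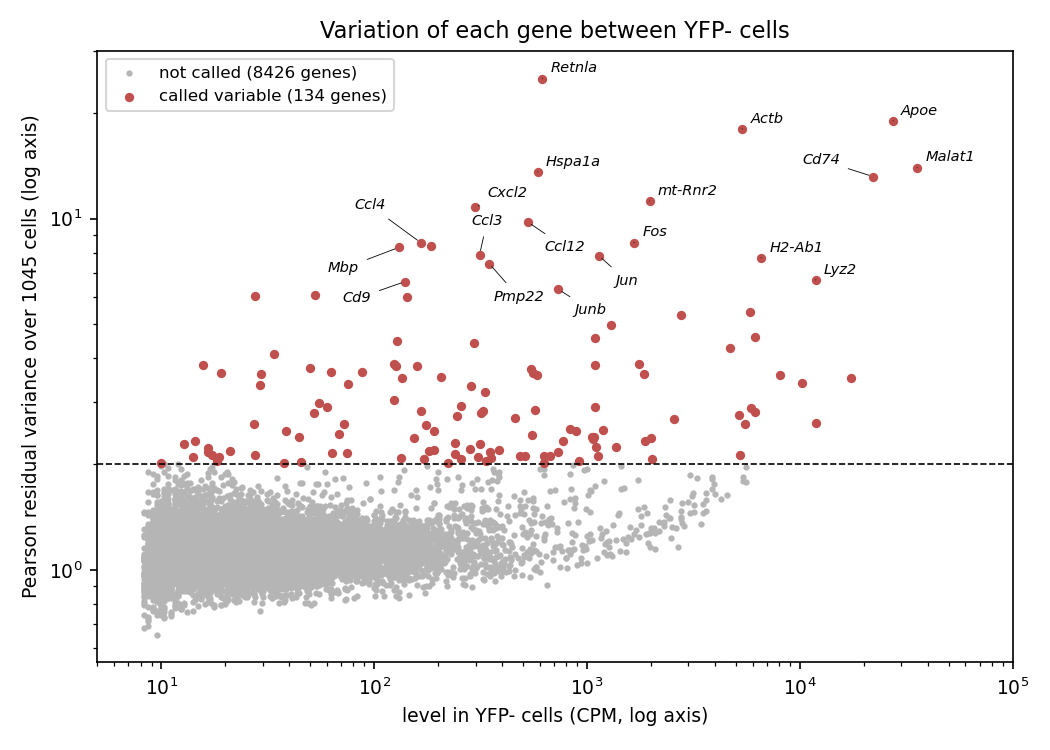
Residual variance of each gene over the 1045 YFP- cells against its level in CPM, both on log axes. The dashed line marks a residual variance of 2, and names stand beside most of the leading genes, of which Retnla is highest at 25.04.

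In the plot of residual variance, rare and abundant genes both lie far above the dashed line, and they reach it in different ways. Retnla, a secreted protein of alternatively activated macrophages, had no UMI in 839 cells (80.3%), 1 to 9 UMIs in 171 cells and 10 or more in 35 cells, with 106 in the highest. The 53 cells with the most Retnla held 88.2% of its 1495 UMIs. Cxcl2, a neutrophil attractant, was absent from 955 cells, and its highest cell had 132 of 717 UMIs. Ccl12, a monocyte attractant, was absent from 758 cells and the top 53 cells held 59.9% of its UMIs. With every cell thinned to 500 UMIs, Retnla had a UMI in 8.90% of cells (7.24–10.8), Cxcl2 in 4.11% and Ccl12 in 13.4%. Free RNA held 1504 CPM of Retnla against 618 CPM in cells, and 500 UMIs of free RNA alone would hold one of Retnla in 52.9% of draws, one of Cxcl2 in 14.6% and one of Ccl12 in 27.8%. A cell with no UMI may still express the gene and a cell with 1 may not, so these shares describe UMIs and not the number of cells that express each gene.

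Apoe, Cd74, Actb and Malat1 instead differed by degree. Apoe ranged from 85.3 UMIs per 10000 in the 10th percentile of cells over a median of 243.5 to 545 in the 90th percentile, and only 4 cells had none. Cd74 had 49.5, 207 and 409 UMIs per 10000 at the same points. Actb, the cytoplasmic actin, had 8.15, 28.8 and 146 UMIs per 10000, the widest of these 4 ranges in proportion. Malat1 had 199.4, 356 and 697 UMIs per 10000, and its Pearson residual had a correlation of -0.53 with log2 UMIs per cell.

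MHC class II genes were the most tightly linked group of variable macrophage genes. The 4 called members, Cd74, H2-Ab1, H2-Eb1 and H2-Aa, had pairwise Pearson correlations of 0.72 to 0.83 over the 1045 cells (median 0.77), against a median of 0.00 over the 8911 pairs of variable genes. These correlations describe cells of 1 library that share its depth and base composition. The list, which also holds the peptide loaders H2-DMa and H2-DMb1 (662 and 453 CPM) and the transactivator Ciita (31.8 CPM), took 0.91% of a cell's UMIs in the 10th percentile, 3.98% at the median and 7.59% in the 90th percentile. A list's score in a cell is the Pearson residual of its summed UMIs given the cell's depth. Each cell's UMIs were divided at random into 2 equal draws. The MHC class II score had a correlation of 0.94 between the draws, so most of the spread between cells was beyond counting error. It had a correlation of -0.06 with log2 UMIs per cell. Of the other variable genes, Lyz2 was linked to Cd74 at 0.44.

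Promoters of the MHC class II genes are known for a Y box, the element bound by the factor NF-Y, shown here for members of the linked group. RefSeq sequences of the 250 bases before the start (GRCm38.p6) were searched for 8 of the list's 11 members. Cd74 was among the members left out of the search. The letters CTGATTGG were present on either strand in 4 of the 8, H2-Aa, H2-Eb1, H2-Eb2 and H2-Oa, against 3.83% of 32851 promoters. Members are counted as genes and the background as promoters, so these shares are not strictly comparable. The letters were chosen after the values had been seen. H2-Aa lies on the minus strand, and chr17:34287856-34287885 is read on that strand. H2-Eb1 lies on the plus strand, at chr17:34305794-34305823. Capitals mark the box, which begins 51 and 62 bases before the start.
H2-Aa: aagagaattttCTGATTGGttctggcgagt
H2-Eb1: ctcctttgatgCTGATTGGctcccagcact
H2-Eb2 had no UMI and H2-Oa 8 UMIs, so the letters were present in abundant and in rare members of the list. A match describes the sequence and is not evidence of binding.

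Immediate-early genes formed the broadest group that varied together. Fos, a subunit of the factor AP-1, had 1662 CPM, with no UMI in 416 cells, 10 or more UMIs in 130 cells and 58 in the highest. Its partner Jun had 1137 CPM and was absent from 485 cells, and Dusp1, a phosphatase that turns off MAP kinases, had 1088 CPM and was absent from 385 cells. The 105 pairs among the 15 called members had correlations of 0.07 to 0.65 (median 0.36), all above 0, with Fos and Dusp1 at 0.65. The list took 0.12% of a cell's UMIs in the 10th percentile, 0.52% at the median, 2.05% in the 90th percentile and 7.43% in the highest cell.

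Heat-shock and inflammatory genes varied with this group. Hspa1a, the inducible Hsp70 chaperone, had no UMI in 837 cells and at least 10 in 53, and it had a correlation of 0.59 with Jun and 0.57 with its cochaperone Dnajb1. Hspa1b is a near-identical copy, so reads may be split between the pair. Between these draws, the immediate-early score had a correlation of 0.58 with the heat-shock score and of 0.33 with the inflammatory cytokine score. Ccl3 and Ccl4, which attract monocytes and lymphocytes, had 313 and 166 CPM and a correlation of 0.62 with each other. Tnf was low at 23.2 CPM, Il1b had 9 UMIs, and Il6, Il1a and Cxcl3 were at 0, so Cxcl2, Ccl3 and Ccl4 carried most of the list's 849 CPM. The immediate-early score had a correlation of -0.01 with the MHC class II score and of 0.05 with the macrophage score. Immediate-early genes summed to 9387 CPM in free RNA and 9323 CPM in cells.

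**Figure D3:**
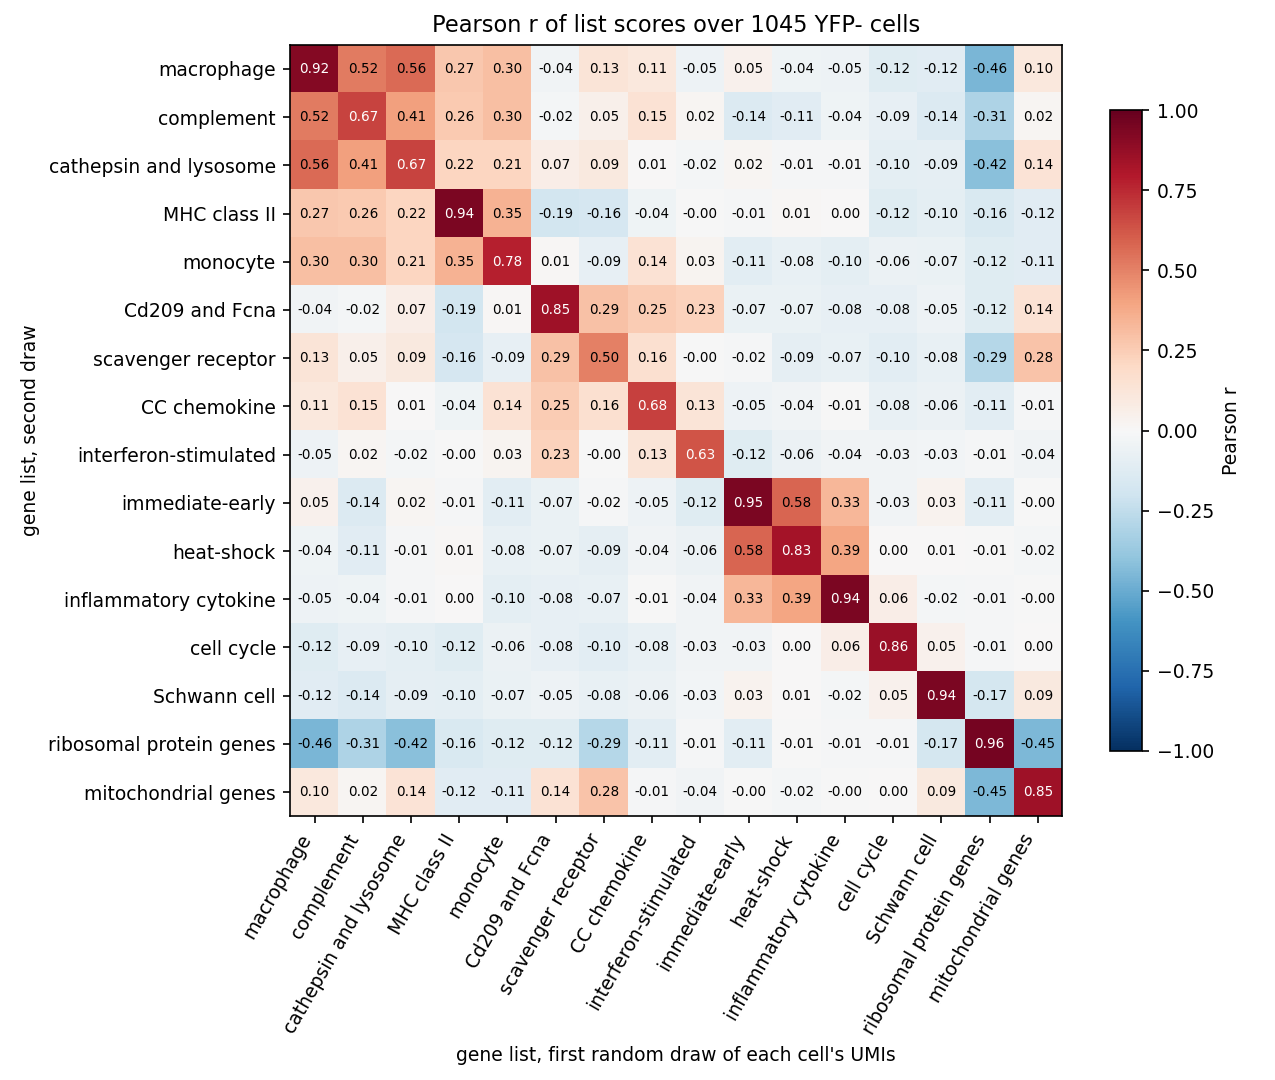
Pearson correlation over the 1045 YFP- cells between the scores of gene lists in the first and in the second random draw of a cell's UMIs. A score is the Pearson residual of a list's summed UMIs given the cell's depth. The diagonal gives the same list in both draws, and the immediate-early, heat-shock and inflammatory cytokine lists form a block apart from the MHC class II list (0.94 with itself, -0.01 with immediate-early).

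The grid of list scores also separates Cd209 and Fcna scavenger genes from MHC class II, with a correlation of -0.19. Some lists share genes, such as Lyve1 and Cd163 in the scavenger lists and C1q in the macrophage and complement lists, which raises their correlation. Ribosomal protein genes had a correlation of 0.57 with log2 UMIs per cell, and mitochondrial genes of -0.58, so these 2 lists followed depth.

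The cyclic AMP response element, the letters TGACGTCA bound by CREB, is known from promoters of immediate-early genes. The search covered 15 of the list's 18 members, and Egr1 was among those left out. The element is shown for the 2 searched members that held it. These were Btg2 and Dusp1, 13.3% of the 15, against 1.55% of 32851 promoters. Members are again counted as genes and the background as promoters, so the shares are not strictly comparable. The letters TGANTCA of an AP-1 site were in none of the 15 searched members, against 6.75% of all promoters. Both genes lie on the minus strand, Btg2 with chr1:134079303-134079332 and Dusp1 with chr17:26508597-26508626. The element is in capitals and begins 166 and 143 bases before the start.
Btg2: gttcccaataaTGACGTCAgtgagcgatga
Dusp1: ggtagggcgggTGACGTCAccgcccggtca
Btg2, an inhibitor of proliferation, was less abundant than Dusp1, at 318 CPM in 357 cells.

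Cd209 and Fcna scavenger genes marked a smaller set of cells. Beside Retnla, Wfdc17 had 548 CPM in 457 cells, Ccl24, an eosinophil attractant, 285 CPM in 341 cells and Clec10a, a lectin, 244 CPM in 353 cells. The lectins Cd209f, with 70 UMIs in 32 cells, and Fcna, a ficolin with 52 UMIs in 42 cells, were rare. Retnla was linked to Crip1 at 0.32 and to Wfdc17 at 0.31, and Cd209f to Ly6e at 0.32. The 36 pairs among the list's 9 called members had correlations of -0.03 to 0.32, with a median of 0.13. The score of the list had a correlation of 0.85 between draws, of 0.29 with scavenger receptors, of 0.25 with CC chemokines and of 0.23 with interferon-stimulated genes. It shares 4 genes with the scavenger receptors and Ccl24 with the CC chemokines, which can raise both correlations. Retnla stood at 1504 CPM in free RNA against 618 CPM in cells, and how much of it entered cells as free RNA was not tested.

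CC chemokines did not vary as 1 group. Ccl6 and Ccl9, made by many resting macrophages, were in 800 and 625 cells, at 1189 and 632 CPM. Ccl2 and Ccl7, monocyte attractants, had 136 CPM in 144 cells and 87.3 CPM in 102 cells and were linked at 0.27, the highest of the 15 pairs, whose median was 0.00. Ccl12 was linked to Pf4 at 0.20.

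The 12 monocyte genes summed to 13944 CPM, nearly all of it from 2 members that macrophages also express, Lyz2 in 1039 cells and Crip1, a LIM domain protein, at 1753.9 CPM in 842 cells. The other members were found in few cells or in none. Ccr2, the receptor by which monocytes leave the marrow, had 300 UMIs, or 124 CPM, in 103 cells, 1 of which had 10 or more. S100a6 had 159 CPM in 158 cells and S100a4, a calcium-binding protein of motile cells, 45.5 CPM in 66 cells. Ccr2 was linked to S100a6 at 0.26, to H2-Eb1 at 0.21 and to Selenop at -0.19. Plac8, Chil3 and Fn1 were at 0, and Ly6c2 and Vcan had 1 UMI each. Free RNA held 130 CPM of Ccr2, close to its level in cells, and the part of free RNA in these UMIs was not tested.

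Interferon-stimulated genes were led by Ifitm3 and Ifi27l2a. Ifitm3 had 1060 CPM in 790 cells and Ifi27l2a 559 CPM in 512 cells. These were the 2 of 8 tested members that were called variable, linked at 0.38. Of all genes tested 1.57% were called, and of those of at least 100 CPM 7.58%. Neither member was called with cells thinned to 500 UMIs, and Ifitm3 was not called with a theta of 10. Bst2 had 234 CPM, while Isg15 had 27 UMIs, Ifit3 14 UMIs, and Ifi44 none. The interferon-stimulated response element was searched as GAAA, any 2 bases and GAAA on either strand. It was present in 7 of the 12 members searched (58.3%), Isg15, Ifit3 and Bst2 among them, against 2.98% of all promoters. Here too members are counted as genes and the background as promoters.

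Clustering of the 1045 cells alone gave 8 clusters, of which 4 could be named from the gene lists and 4, with 677 cells (64.8%), could not. Other settings gave other names, with a monocyte cluster of 122 cells (13.6%) at a minimum of 1000 UMIs. With both libraries clustered together, 68 YFP- cells fell in a monocyte, 42 in an interferon-stimulated, 33 in a heat-shock and 13 in a mural cluster. The clusters were formed from the genes that describe them, so the levels below are a description without a test. The 4 unnamed clusters held 209, 168, 154 and 146 cells, and no leading gene of theirs had a log2 ratio to the other cells above 1.56 (Tubb2b, on 20 UMIs, after adding 10 CPM). The largest of them had Ccr2 among its 10 leading genes, at 202 CPM against 105 CPM in other cells, and MHC class II genes at a log2 ratio of 0.38. The smallest was shallow, with a median of 1200.5 UMIs, and had 1.79% mitochondrial UMIs and 83014 CPM of macrophage genes.

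The immediate-early cluster held 248 cells (23.7%, 21.2–26.4). This share was 3.64% with 1000 variable genes and 31.5% at a resolution of 0.4. Of 2647 genes with a mean of at least 50 CPM, 1.59% were at least 2-fold higher in the cluster. The genes tested differ by cluster, since a gene can reach that mean through the cluster where it is high. Hspa1a had 1705 CPM in the immediate-early cluster and 117 CPM in the other YFP- cells, Cxcl2 862 and 59.3 CPM, Junb 1735 and 312 CPM and Fos 3778 and 774 CPM. Of the 248 cells, Fos had a UMI in 233, Junb in 201, Hspa1a in 123 and Cxcl2 in 47. A single cell held 21.4% of the cluster's Cxcl2 UMIs. The immediate-early cluster was the deepest of the large clusters, with a median of 2904.5 UMIs. Its macrophage and MHC class II levels differed from those of other cells by log2 ratios of 0.11 and -0.07.

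The Cd209 and Fcna scavenger macrophage-like cluster held 57 cells (5.45%, 4.16–7.01). Other settings gave shares from 4.50% at a resolution of 0.4 to 11.8% with cells thinned to 500 UMIs. Of 2795 genes, some of which reached 50 CPM only through this cluster, 12.1% were at least 2-fold higher in it. Its cells were shallow, with a median of 1506 UMIs against 2233 over all cells, and had the highest mitochondrial share of the 8 clusters, 1.94% against 1.09% of all UMIs, whose part in the levels below was not tested. Retnla had 8286 CPM in it and 289 CPM in other cells, Cd209f 512 and 8.20 CPM, Fcna 281 and 10.4 CPM and the chemokine Ccl8 381 and 14.2 CPM. MHC class II genes were at 18618 CPM, a log2 ratio of -1.20 to other cells, and inflammatory cytokine genes had a log2 ratio of -4.14. The first 4 of its leading genes, Igfbp5, Csn3, Wfdc18 and Lcn2, came almost wholly from single barcodes, with 95.7% to 100% of their UMIs in the cluster in 1 cell each.

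A cluster of 49 cells (4.69%, 3.49–6.15) was led by Schwann cell genes. A cluster of that name held 63.0% of cells at a resolution of 0.4, and no cluster took the name with 1000 variable genes. Of 2788 genes, some of which reached 50 CPM only through the cluster of 49 cells, 8.18% were at least 2-fold higher in it. Pmp22, a membrane protein of peripheral myelin, had 2932 CPM in it and 227 CPM in other cells, but its 314 UMIs lay in 16 cells and 1 cell held 43.6% of them. Mbp, a protein of the inner face of myelin, had 1699 CPM in it and 58.0 CPM in other cells, with its 182 UMIs in 13 cells. The 49 barcodes were not alike. The 9 of them with 10 or more UMIs of the Schwann cell list held 1034 of the cluster's 1054 such UMIs, at 2.58% to 12.4% of a barcode's UMIs. In these 9 the macrophage list stood at 7168 CPM, with a median of 0.532% of a barcode's UMIs (range 0.212–6.14), and 6 of them had a C1q UMI. The 11 barcodes with 1 to 9 Schwann cell UMIs had macrophage genes at 62901 CPM and the 29 with none at 47654 CPM, and all 40 had a C1q UMI. Outside the cluster 490 cells with 1 to 9 Schwann cell UMIs held 801 of the 1868 in all, with macrophage genes at 56899 CPM, and 1 cell had 10 or more, with macrophage genes at 29163 CPM. Mural genes had 13 UMIs in the cluster, or 121 CPM against 7.79 CPM in other cells, 7 of them from Tagln, and fibroblast genes 27 UMIs, or 252 against 68.8 CPM. Scrublet marked 0 of the 49 as doublets, and Mbp was at 1603 CPM in free RNA. The part of doublets in this cluster was not tested.

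The cell cycle cluster held 14 cells (1.34%, 0.734–2.24). The share was 1.05% at a resolution of 0.4, 17.5% at a minimum of 1000 UMIs and 18.3% without immediate-early and heat-shock genes. No cluster took the name with cells thinned to 500 UMIs. Of 2895 genes, some of which reached 50 CPM only through this cluster, 21.0% were at least 2-fold higher in it. Top2a, which untangles replicated DNA, had 952 CPM in it and 3.38 CPM in other cells, and Mki67, a marker of cycling cells, 419 and 1.69 CPM. The median cell had 3656.5 UMIs, more than in any other cluster. Stmn1, which binds tubulin, was linked to Hmgb2, a chromatin protein, at 0.59.

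**Figure D4:**
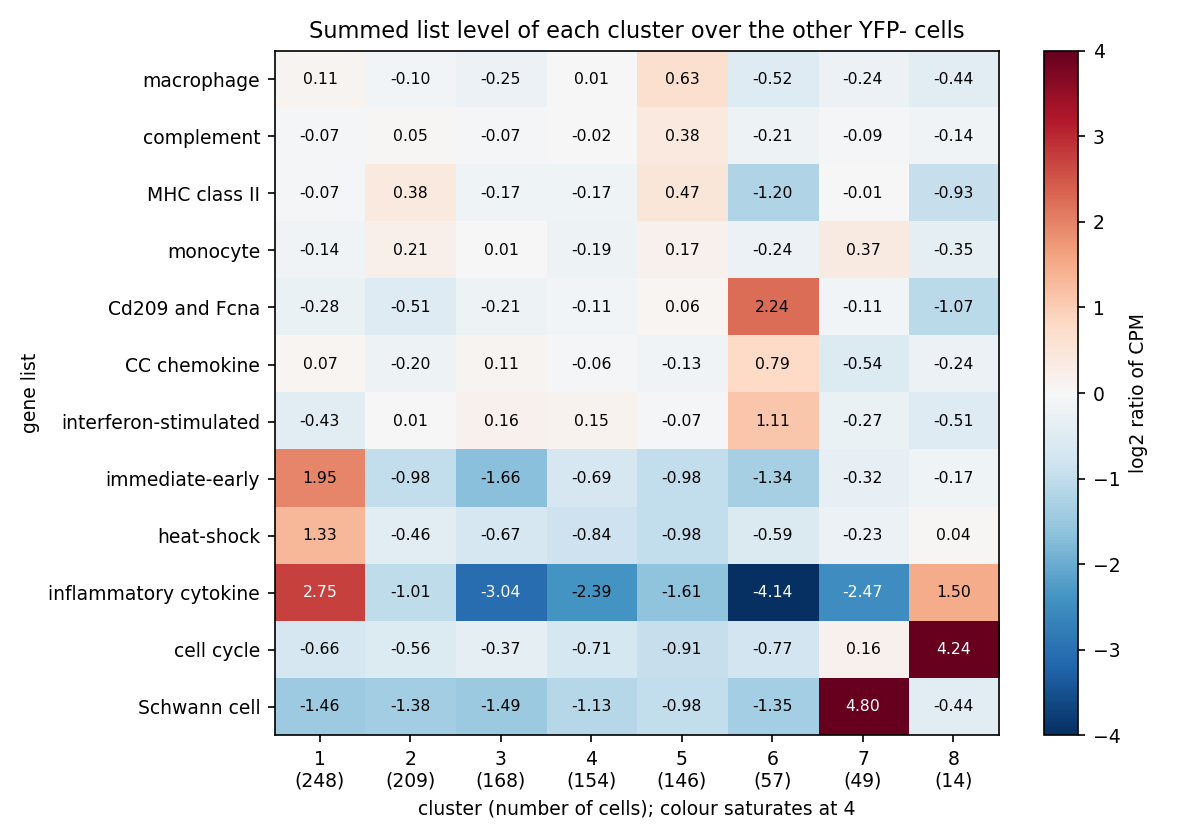
Log2 ratio of the summed CPM of each gene list between each of the 8 clusters and the other YFP- cells, with the number of cells below each cluster. Cluster 1 has the immediate-early (1.95), heat-shock (1.33) and inflammatory cytokine (2.75) lists high, cluster 6 the Cd209 and Fcna list (2.24), cluster 7 the Schwann cell list (4.80) and cluster 8 the cell cycle list (4.24).

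The grid of lists by cluster shows the 4 named clusters apart from unnamed clusters 2 to 5, but the borders between clusters were weak. Clusters made separately from the 2 random draws of each cell's UMIs had an adjusted Rand index of 0.0781, where 1 is the same division and 0 what unrelated divisions give. The immediate-early cluster held 230 cells in the first draw and 106 in the second, with 82 in both. The Cd209 and Fcna cluster held 83 and 41 cells with 37 in both, the Schwann cell-led one 102 and 56 with 15 in both, and the cell cycle one 36 and 119 with 16 in both.

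Choosing cells in the first draw and counting in the second keeps the counting error of the choice out of the levels. The cells were still grouped by the genes that describe them, so a rise of a group's own list is a description without a test. The 230 immediate-early cells of the first draw had immediate-early genes at 19162 CPM in the second draw, 3.36-fold (3.24–3.49) above the remaining cells. Their inflammatory cytokine genes were 8.85-fold (7.63–10.3) and their heat-shock genes 2.54-fold (2.37–2.73) higher, while macrophage genes were at 1.001-fold (0.984–1.02). The 83 Cd209 and Fcna cells had their own list 3.48-fold (3.27–3.69) higher, interferon-stimulated genes 1.79-fold (1.58–2.02) and CC chemokines 1.66-fold (1.49–1.84) higher. Ccl24 is on both the CC chemokine list and the list of these cells. MHC class II genes of these cells were at 0.473-fold (0.451–0.496) and inflammatory cytokine genes at 0.237-fold (0.140–0.377). The neutrophil list of these cells was 3.31-fold (2.31–4.64) higher on 43 UMIs, with Mmp9 its most abundant gene and S100a8, S100a9, Retnlg and Ly6g at 0 in all YFP- cells. The 36 cell cycle cells had cell cycle genes 8.01-fold (7.04–9.11) higher and scavenger receptors at 0.586-fold (0.499–0.685). Inflammatory cytokine genes were at 0.567-fold (0.383–0.810) in these 36 cells, whereas in the cluster of 14 cells made from all UMIs they stood at 2305 CPM against 817 CPM in other cells. The 102 cells of the Schwann cell-led group had Schwann cell genes 13.8-fold (12.0–15.7) higher and macrophage genes at 1.05-fold (1.03–1.08). Mural genes of the same 102 cells were 8.64-fold (2.90–25.2) higher on 8 UMIs, and fibroblast genes were at 1.505-fold (0.770–2.72). Of the clusters made from all UMIs, 156 of the 248 immediate-early cells, 48 of the 57 Cd209 and Fcna cells, 8 of the 14 cell cycle cells and 12 of the 49 Schwann cell-led cells were among those chosen in the first draw. Both draws come from the same cells and library, so this removes counting error in the choice of cells and nothing else.

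Beside the YFP+ cells, the YFP- cells had nearly the same levels of most genes. The YFP+ library gave 4053 cells with a median of 1484 UMIs, so its cells were shallower. Of 2632 genes with a mean of at least 50 CPM, 93 (3.53%) were at least 2-fold higher in YFP- cells and 4 (0.152%) at least 2-fold higher in YFP+ cells. The median log2 ratio of YFP+ over YFP- cells was 0.02, with 10th and 90th percentiles of -0.31 and 0.26. With 1 library each, a difference between the sorts and a difference between the libraries cannot be told apart.

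The 4 genes higher in YFP+ cells were S100a4, S100a6, Ccr2 and Notch2. S100a4 had 45.5 CPM in YFP- cells and 124 CPM in YFP+ cells, S100a6 159 and 377 CPM, Ccr2 124 and 292 CPM and Notch2, a receptor of cell contact signals, 131 and 267 CPM. These 3 monocyte genes were among 5 of that list with enough counts, while Crip1 and Lyz2 did not differ by 2-fold. Free RNA of the YFP+ library was also higher in all 4 genes. Ccr2 was at 130 CPM in free RNA of the YFP- library and at 229.6 CPM in that of the YFP+ library, S100a4 at 72.6 and 155 CPM and Notch2 at 89.0 and 235 CPM. S100a6 was at 297 and 603 CPM there, above its level in the cells of either library, and the part of free RNA in the differences between cells was not tested. Actb lay just under the line, with 5353.5 CPM in YFP- against 10647 CPM in YFP+ cells, a log2 ratio of 0.99. Hspa1b lay closer still, with 75.3 against 151 CPM. Its log2 ratio was 0.998 with the pseudocount of 1 CPM, and its fold without the pseudocount was 2.01. MHC class II genes summed to 41836 CPM in YFP- against 54566 CPM in YFP+ cells, a log2 ratio of 0.38 (0.37–0.39), and none of the 6 tested members differed by 2-fold.

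Genes higher in YFP- cells were mostly gene models and copies of other genes. Of the 93, 81 were gene models without a symbol, mitochondrial genes or entries of the ribosomal list, which include named copies such as Rpl28-ps1. Another 7 were other named copies, and 5 remained. Among these, Colec12, a scavenger receptor, had 89.7 CPM in YFP- against 38.7 CPM in YFP+ cells, and Gpx3, a secreted glutathione peroxidase, 177 and 78.1 CPM. Wdr89 had 936 and 457 CPM, and Lyz1, with 199.7 and 94.1 CPM, is a near copy of Lyz2. In free RNA of the YFP- and YFP+ libraries, Colec12 was at 56.1 and 26.1 CPM and Gpx3 at 154 and 72.8 CPM. The part of free RNA in these differences was not tested. Ftl1-ps1, a copy of ferritin Ftl1, had 850.3 CPM in YFP- against 340.4 CPM in YFP+ cells, while Ftl1 had 10200.4 and 9991 CPM. Over 47 such named copies the median log2 ratio was -1.19, that of the parent genes 0.06, and that of copy and parent summed -0.04. The copies share sequence with their parents, so the division of reads between them is uncertain, and its cause was not tested. The Cd209 and Fcna list had a median log2 ratio of -0.35 over 11 tested members, none of which differed by 2-fold.

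**Figure D5:**
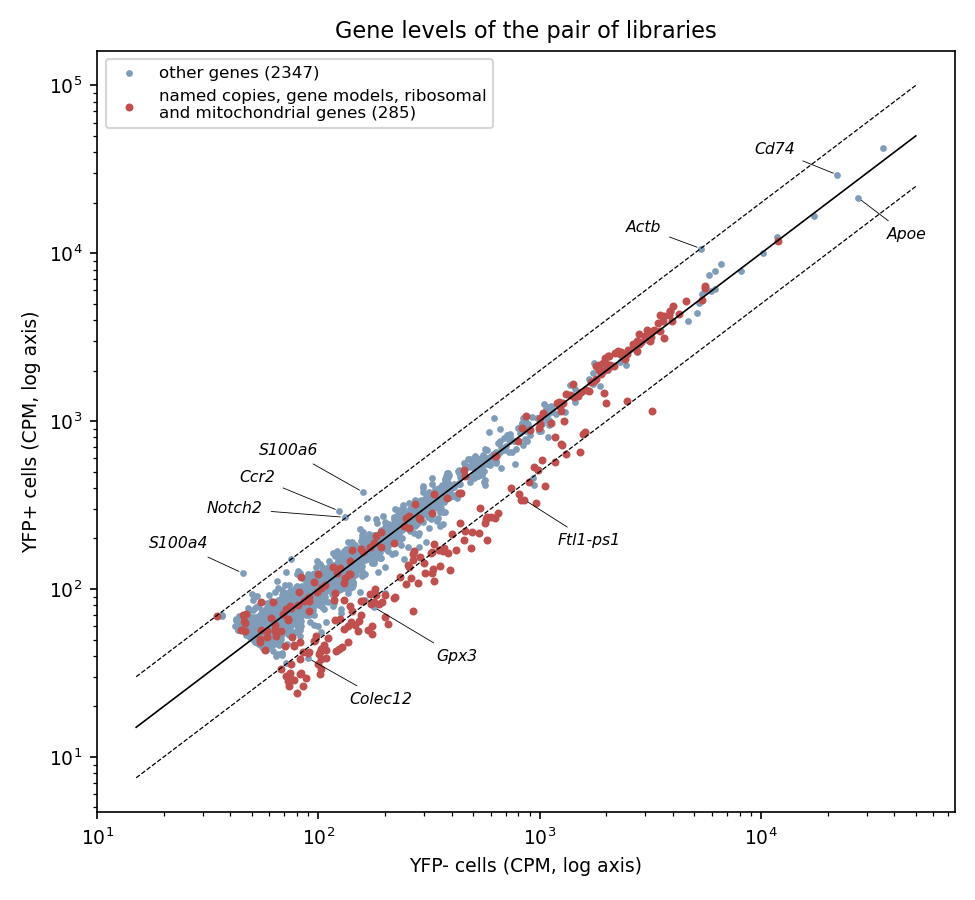
CPM of 2632 genes in YFP- cells (horizontal, log axis) and YFP+ cells (vertical, log axis), with the line of equality and dashed lines at 2-fold. Copies, gene models, ribosomal and mitochondrial genes (red) make up most points below the lower dashed line, and S100a4, S100a6, Ccr2 and Notch2 lie above the upper one.

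In the plot of the pair of libraries the cloud of other genes stays between the dashed lines, at a Pearson correlation of 0.97 over genes, which are not independent replicates.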

How the data were processed

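For every barcode of the kit, the authors deposited UMI counts of each gene, obtained with Cell Ranger from 10x Chromium v2 reads mapped to GRCm38/mm10. The submitters' processing notes name Cell Ranger 3.0.2 and Seurat 2.2.0. No normalization or cell filter had been applied to the 54838 genes. The study's filter on reads per cell cannot be repeated on UMIs. The bulk libraries were not analysed here.

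Cells had at least 500 UMIs and 200 genes. Counts were summed and scaled to CPM with exact Poisson intervals. Shares have exact Clopper-Pearson intervals, and ratios between libraries used a pseudocount of 1 CPM and a mean of at least 50 CPM. Residual variance used analytic Pearson residuals with theta 100, tested on simulated YFP- counts of 8309 genes. There, 30% of 200 genes raised 4-fold in 20% of cells and 0% of the other genes passed 2 (65% for 8-fold, of 8341 genes). The 200 genes were drawn from those with at least 500 UMIs summed over cells, so recovery of rarer genes was not tested. Cells were clustered with scanpy 1.11.5 (2000 variable genes, 20 components, 15 neighbours, Leiden resolution 0.8, seed 0), in Python 3.11.15. Genes named are the 5 markers, the 20 most abundant, the 20 most variable, the 10 leading genes of each cluster, members of 28 gene lists and the 10 with the largest and smallest ratio between libraries, as well as genes most correlated with these, chosen after their values were seen. A few genes that this rule takes in are not reported here. A cluster took the name of the list with the most members among its 10 leading genes, at least 3, a rule written with the clusters in view, as was the division of one cluster at 10 Schwann cell UMIs. The members and lists were chosen with earlier results of these data known.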

Additional observations from a re-analysis of the deposited data

Results flagged for a closer look

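Barcodes too shallow to be cells carried Schwann cell transcripts, a signal in data outside the main measurement. In YFP- barcodes with 10 to 100 UMIs, the 12 Schwann cell genes summed to 3482 CPM (95% counting interval 3361–3605), above the 3.30 CPM that a count of 0 allows and above their 773 CPM in cells. Mbp, a myelin protein, stood at 1603 CPM there and at 131 CPM in cells, and S100b at 124 and 13.2 CPM. The shallow barcodes of the YFP+ library held 5529 CPM of the same list.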

How the results depend on the processing

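The 20 most abundant genes were the same 20 under 4 alternatives, the number of cells ranged from 895 to 1042 and genes 2-fold apart between the libraries from 92 to 101. Variable genes numbered 27 when cells were thinned to 500 UMIs and 533 at a residual variance of 1.5. Clusters numbered 4 at a resolution of 0.4 and 15 at 1.2. Of 428 levels of 107 genes, 312 moved by less than their counting interval, and 44 levels of 22 genes moved by over 1.5 times, such as Mbp, at 0 CPM with 10% free RNA subtracted, 58.0 CPM without the Schwann cell-led cluster and 231 CPM with cells weighted equally.

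The shares of cells in the named clusters depended on the clustering, and the cause was not tested. The immediate-early share was 31.5% at a resolution of 0.4, 9.95% at 1.2, 8.04% with 10 components, 3.64% with 1000 variable genes, 0% without immediate-early and heat-shock genes, which removes its markers, 19.1% without ribosomal and mitochondrial genes, 9.47% thinned, 21.1% without marked doublets and 14.7% at a minimum of 1000 UMIs. The Cd209 and Fcna share was 11.8% thinned, 9.72% at 1000 UMIs, 7.94% on a random draw of the UMIs and 10.05% with both libraries clustered together. The Schwann cell-led share was 63.0% at a resolution of 0.4, 7.85% at 1.2, 0% with 1000 variable genes, 17.6% without immediate-early and heat-shock genes, 0% without ribosomal and mitochondrial genes, 1.44% thinned, 7.77% without doublets, 0% at 1000 UMIs, 9.76% on a random draw of the UMIs and 0% with both libraries. The cell cycle share was 14.5% with 10 components, 18.3% without immediate-early and heat-shock genes, 11.9% without ribosomal and mitochondrial genes, 0% thinned, 17.5% at 1000 UMIs and 3.44% on a random draw of the UMIs. No paired analysis was possible because each condition is 1 library and no result comes from a test. Depth limits rare genes: a count of 0 in these cells allows up to 1.24 CPM.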
